A study of Mus musculus with 76 samples.

Results

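The genes described here are 10 widely used macrophage markers, *Adgre1*, *Cd68*, *Csf1r*, *Lyz2*, *Mrc1*, *Cd163*, *Itgax*, *Trem2*, *Ccl2* and *Clec4f*, chosen by gene symbol and followed by genotype and tissue. Of the 10, 9 had a row among the 18964 rows for white adipose tissue (WAT) and 10 among the 16775 rows for liver. *Clec4f* was not analysed in WAT. RNA came from visceral WAT and liver of female mice with free access to food and drink, either *Fnip2* C/C or *Fnip2* T/T. The C/C mice were made in C57BL/6 blastocysts with Cas9 and carry a T-to-C change in the 3′UTR of *Fnip2* together with a G-to-C change that removes the PAM of the guide, so that the 2 base changes cannot be told apart. T/T mice carry the unedited allele. Age and litter are not given in the sources used here. WAT came from 4 C/C and 5 T/T mice and liver from 5 C/C and 5 T/T mice, 6 of which gave both tissues, and the comparison asks how the edited site changes expression in each tissue.

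Macrophages are phagocytes that live in every tissue. Kupffer cells, the resident macrophages of liver sinusoids, take up particles and aged red cells from blood, whereas adipose tissue macrophages clear dying adipocytes and handle the lipid these release. Both populations need the receptor encoded by *Csf1r*, which binds the growth factors CSF1 and IL-34. Subsets are told apart by scavenger receptors, lectins and lipid sensors that are among the genes below.

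Libraries were made from 3′ ends of poly(A) RNA (QuantSeq FWD), and values are read counts that were divided by 1 size factor per library. Whole reads recovered from them numbered 4180209 to 6277644 per WAT library and 5583041 to 7523200 per liver library. The lowest Spearman correlation across genes between libraries of 1 group was 0.911 in WAT and 0.963 in liver. The WAT library of C/C mouse 593 stood apart, with 15068 normalized counts of *Cyp11a1*, an enzyme of steroid synthesis in ovary, where the other 8 libraries had between 0 and 13.6. In bulk tissue, fewer cells of a type and less RNA per cell cannot be told apart. In WAT every C/C mouse had an even RNA label number and every T/T mouse an odd one. Anything that goes with even and odd labels therefore cannot be told apart from genotype in WAT. The source labels give WAT, and adipocyte genes were abundant there (*Adipoq* averaged 9174 normalized counts in C/C and 18964 in T/T), while the hepatocyte genes summed to at least 86734 CPM in every liver (CPM, recovered reads scaled to a common library total).

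In WAT, *Adgre1* and *Cd68* were lower in C/C than in T/T mice, and *Trem2* was higher, whereas the other 5 markers tested did not pass the threshold. In liver none of the markers tested passed it. The genotype was tested with limma on log2(normalized count + 1) over genes with a mean of at least 10, and a gene was called at a Benjamini-Hochberg adjusted p under 0.05 over all genes tested in that tissue. Of the 8 markers tested in WAT, 3 were called, 1 higher and 2 lower in C/C, against 32.1% of all 12798 genes (15.1% higher and 17% lower). The share of markers called was therefore close to that of all genes. Genotypes did not overlap for 2 markers, and for 26.1% of all genes. The median log2 fold change (C/C minus T/T throughout) was -0.09 over the 8 markers and 0.02 over all genes tested.

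**Figure D1:**
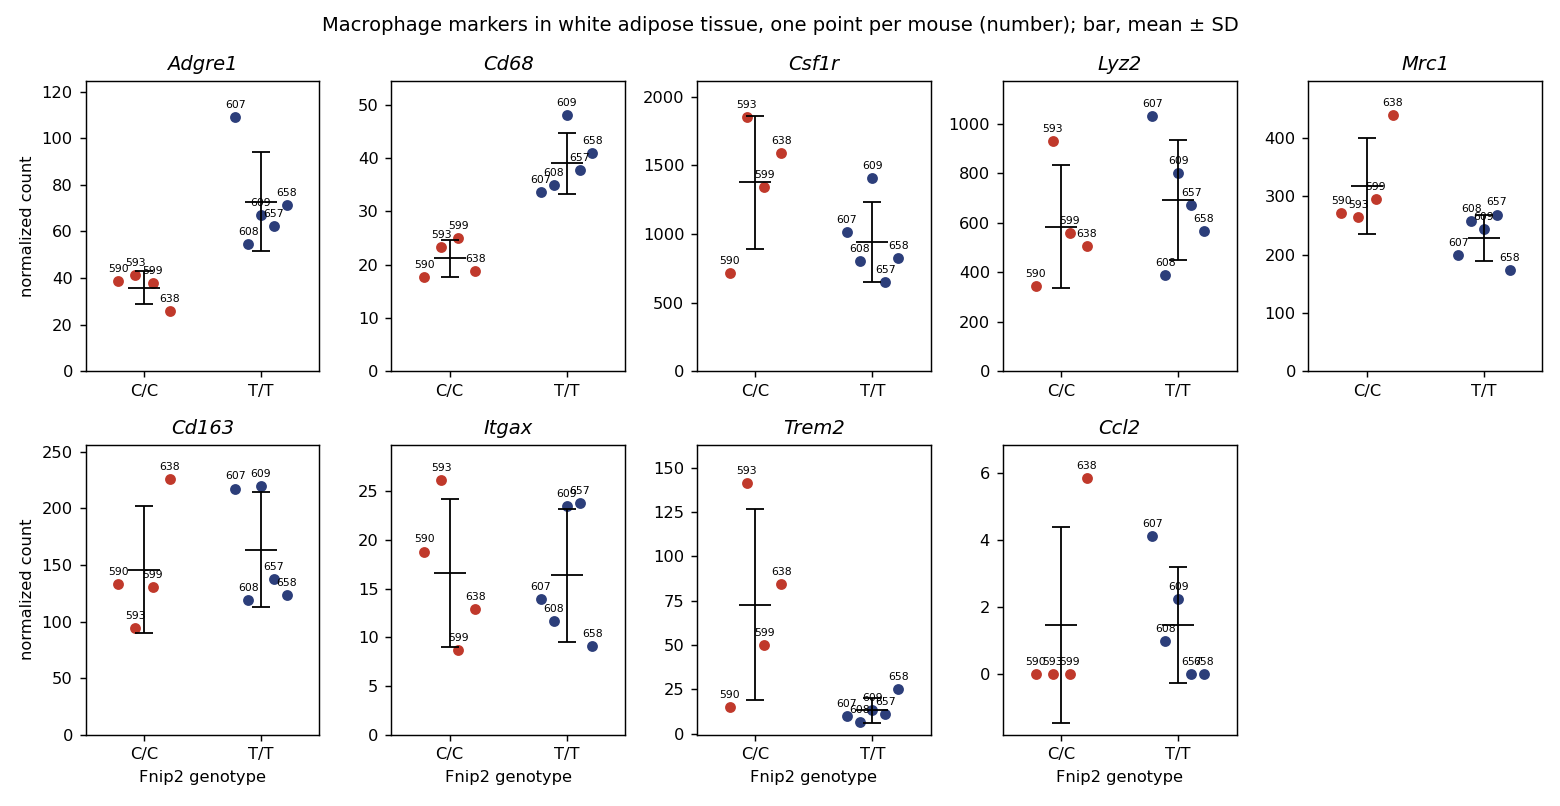
Normalized counts of 9 macrophage markers in WAT, plotted on a linear axis for each mouse by *Fnip2* genotype, with the mean ± SD of 4 C/C and 5 T/T mice. All 4 C/C mice lie below all 5 T/T mice for *Adgre1* and *Cd68*, and 3 of 4 C/C mice lie above all T/T mice for *Trem2*.

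*Adgre1* encodes F4/80, the surface receptor most often used to identify mouse macrophages. In WAT its normalized counts were 38.8, 41.2, 37.9 and 25.8 in C/C mice 590, 593, 599 and 638, and 109.1, 54.5, 67.0, 62.5 and 71.2 in T/T mice 607, 608, 609, 657 and 658. Every C/C mouse was below every T/T mouse. The group values were 35.9 ± 6.91 (SD, n = 4) and 72.9 ± 21.2 (SD, n = 5), and *Adgre1* fell by 0.98 on the log2 scale (SE 0.25, limma adjusted p = 0.0110). The exact two-sided permutation p was 0.00794, the smallest that 126 groupings allow. These values rest on between 22 and 133 reads per library.

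*Cd68* encodes macrosialin, a glycoprotein of late endosomes and lysosomes. Its normalized counts in WAT were 17.6, 23.4, 24.9 and 18.7 in C/C mice 590, 593, 599 and 638. In T/T mice 607, 608, 609, 657 and 658 they were 33.6, 35.0, 48.0, 37.7 and 40.9. The genotypes again did not overlap, and *Cd68* fell by 0.86 on the log2 scale in C/C (SE 0.25, limma adjusted p = 0.0193; exact permutation p = 0.00794). Between 15 and 54 reads per library support these values.

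*Trem2* encodes a lipid-sensing receptor of macrophages that signals through the adaptor TYROBP. In WAT of C/C mice 590, 593, 599 and 638 it had 15.3, 141.3, 49.9 and 84.3 normalized counts, and in T/T mice 607, 608, 609, 657 and 658 it had 9.85, 6.81, 13.4, 10.9 and 25.0. The C/C mice spread widely, and mouse 590 lay within the T/T range while the other 3 lay above it. *Trem2* rose by 2.11 on the log2 scale in C/C (SE 0.55, limma adjusted p = 0.0118), a 4.32-fold difference, with an exact permutation p of 0.0238. Mouse 593, whose library held by far the most ovary transcripts, had the highest value. Without it the log2 fold change was 1.66 (limma adjusted p = 0.0325), and without mouse 590 it was 2.71 (adjusted p = 0.00119).

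*Csf1r*, the receptor for CSF1 and IL-34, had normalized counts of 716, 1853, 1344 and 1588 in WAT of C/C mice 590, 593, 599 and 638, and 1017, 805, 1404, 649 and 826 in T/T mice 607, 608, 609, 657 and 658. The groups overlapped, since C/C mouse 590 lay low among the T/T mice. The log2 fold change was 0.52 (SE 0.29, limma adjusted p = 0.185). Without mouse 590 it was 0.80 and passed the threshold (adjusted p = 0.0291), and without mouse 593 it was 0.34 (adjusted p = 0.397). Its sign was opposite to that of *Adgre1*, although both genes are commonly used to mark the same cells. The log2 ratio of *Adgre1* to *Csf1r* within a library was -5.20 ± 0.74 in C/C (SD, n = 4) and -3.68 ± 0.47 in T/T (SD, n = 5), a difference of -1.52 (exact permutation p = 0.0238). This ratio was chosen after the values were seen and restates the opposite signs, so its p adds no separate evidence.

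*Mrc1* encodes the mannose receptor CD206 and *Cd163* the receptor for haptoglobin-bound haemoglobin, and both mark resident macrophages. *Mrc1* had 270.5, 264.9, 295.9 and 439.2 normalized counts in WAT of C/C mice 590, 593, 599 and 638, and 198.6, 256.8, 243.4, 268.7 and 174.3 in T/T mice 607, 608, 609, 657 and 658. Of the C/C mice, 3 exceeded every T/T mouse. The log2 fold change of 0.46 (SE 0.20) had an exact permutation p of 0.0317 but did not pass adjustment over all genes (limma adjusted p = 0.0969). *Cd163* ranged from 94.5 to 226.1 in C/C and from 118.7 to 219.9 in T/T, with a log2 fold change of -0.18 (SE 0.27, limma adjusted p = 0.636).

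*Lyz2*, which encodes the lysozyme of myeloid cells, ranged in WAT from 343 to 928 normalized counts in C/C and from 387 to 1031 in T/T, and its log2 fold change was -0.26 (SE 0.31, limma adjusted p = 0.540). Its neighbour *Lyz1* is a near copy. Over the last 500 bases of their GENCODE transcripts, 16.9% of the *Lyz2* stretches of 50 bases also occurred in *Lyz1*, so reads may be split between them. *Itgax*, the integrin CD11c of dendritic cells and activated macrophages, had 8.67 to 26.2 in C/C and 9.09 to 23.8 in T/T (log2 fold change 0.01, SE 0.41, limma adjusted p = 0.992). *Ccl2*, the chemokine that draws monocytes into tissue, was too low to test. It had 0 reads in C/C mice 590, 593 and 599 and 5 in mouse 638, and 5, 1, 2, 0 and 0 reads in T/T mice 607, 608, 609, 657 and 658. Its direction was not detectable at this depth.

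The mouse numbers fall into a series under 610 and a series over 630. In the first (3 C/C against 3 T/T mice) the differences in mean log2 value in WAT were -0.89 for *Adgre1*, -0.79 for *Cd68* and 2.20 for *Trem2*, and in the second (1 against 2) they were -1.34, -1.03 and 2.28. Because the genotypes do not overlap for *Adgre1* and *Cd68*, their sign is the same under any division of these mice, and the second series holds 1 C/C mouse.

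Relative to the sum of *Adgre1* and *Csf1r* in the same library, 3 of the 6 further markers differed in WAT by the exact permutation test. *Trem2* was higher in C/C by 1.75 on the log2 scale (exact p = 0.0317), *Cd68* fell by 1.33 (exact p = 0.00794) and *Lyz2* fell by 0.71 (exact p = 0.0397). *Csf1r* makes up most of that sum. No other genes were set against it, so no share over all genes stands beside this count or the one below. In WAT 32.1% of all genes were called by limma without a denominator, so neither count is read as particular to the markers. With *Adgre1* alone as the denominator *Trem2* was higher by 3.20 (exact p = 0.00794), while the sign turned for *Cd68* (0.11, exact p = 0.746) and *Lyz2* (0.74, exact p = 0.0556). *Mrc1* (1.46, exact p = 0.00794) and *Cd163* (0.82, exact p = 0.0397) were then higher in C/C, so that a different 3 of the 6 passed the threshold under this denominator. Leaving out mouse 593, 599, 638, 607, 609 or 657 left 1 of the 6 under the threshold.

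**Figure D2:**
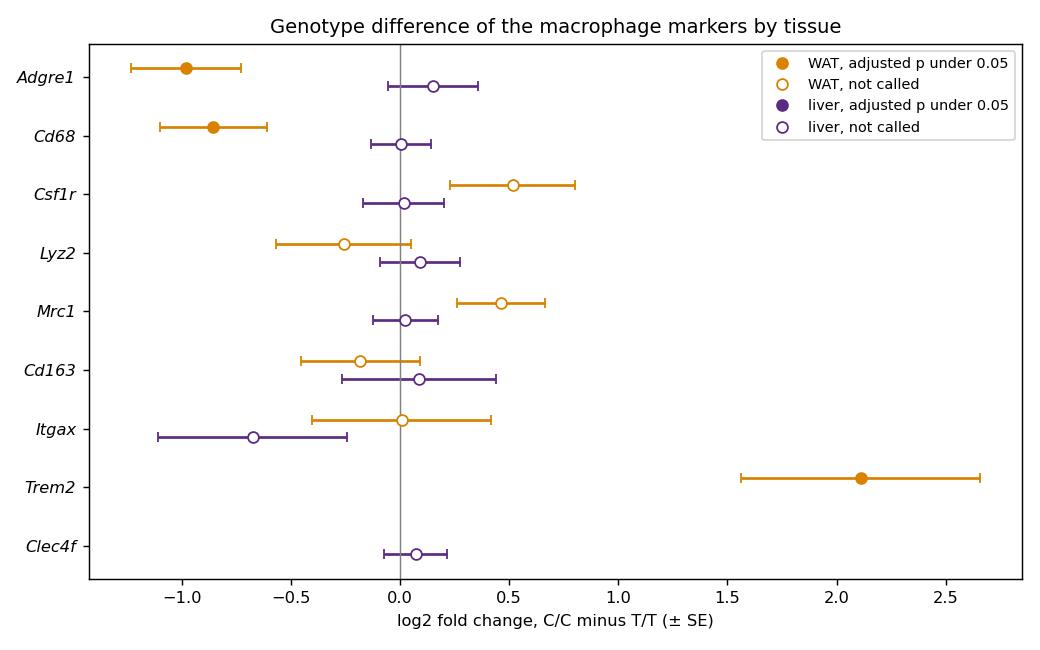
Log2 fold change (C/C minus T/T) ± SE from limma for the macrophage markers tested in WAT and in liver, with filled points for an adjusted p under 0.05. In WAT the values run from -0.98 for *Adgre1* to 2.11 for *Trem2*, and in liver all but *Itgax* (-0.68) lie between 0.00 and 0.15.

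The other macrophage genes in WAT also went in both directions. Of 18 macrophage core genes tested, 3 were called higher and 3 lower in C/C, with a median log2 fold change of 0.21. Of all genes tested in WAT, 15.1% were called higher and 17% lower, so the shares in this list were close to those of all genes. The higher ones were *Mertk* (0.92, SE 0.18, limma adjusted p = 0.00331), a receptor for the uptake of dying cells, *Cybb* (0.81), the NADPH oxidase subunit, and *C1qa* (1.06). The lower ones were *C1qc* (-1.70), *Cd14* (-2.90), the co-receptor for lipopolysaccharide, and *Tyrobp* (-0.76, limma adjusted p = 0.0491), the adaptor of TREM2. *Cd14* had at most 2.35 normalized counts in C/C mice and reached the minimum mean only through T/T mice (means of 1.15 and 18.5), so it counts for nothing in the direction of the list, and the size of its fold depends on the value of 1 added before the log. *Tyrobp* and *Trem2* thus had opposite signs.

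The 3 chains of complement C1q, which macrophages assemble into 1 molecule, did not move together. *C1qa* had 1063, 1890, 1309 and 2170 normalized counts in WAT of C/C mice 590, 593, 599 and 638 and between 533 and 1087 in T/T mice. *C1qc* had 50.6, 59.0, 57.5 and 36.3 in the same C/C mice and between 129.4 and 196.3 in T/T mice, with no overlap. The third chain, *C1qb*, had a log2 fold change of 0.28 (SE 0.26, limma adjusted p = 0.429), against 1.06 for *C1qa* (SE 0.27, adjusted p = 0.0106) and -1.70 for *C1qc* (SE 0.21, adjusted p = 0.000508). In liver the 3 log2 fold changes were 0.02, 0.03 and 0.17 for *C1qa*, *C1qb* and *C1qc*.

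Among ligands and partners, 7 were tested in WAT and 1 was called. The share of all genes called in WAT, 32.1%, stands beside this list and each list below. *Csf1*, the growth factor of the *Csf1r* receptor, rose in C/C by 1.16 on the log2 scale (SE 0.30, limma adjusted p = 0.0122). *Il34* had 0.55 (adjusted p = 0.179) and *Apoe*, a lipoprotein bound by TREM2, had -0.66 (adjusted p = 0.0582). Of 7 resident tissue macrophage genes, 2 fell: *Pf4* by 1.84 and the lectin gene *Clec10a* by 2.63. The genotypes did not overlap for either, as for 26.1% of all genes tested. Of 5 lipid-associated macrophage genes tested, *Lipa*, the lysosomal acid lipase, rose by 0.85 and the tetraspanin gene *Cd9* fell by 1.16, while *Gpnmb* had 1.22 (adjusted p = 0.0884). Mouse 593 had 805.8 normalized counts of *Gpnmb* and the other C/C mice 152.9 to 212.4, and without it the difference in mean log2 value was 0.66. Of the Kupffer cell genes (11.1 to 66.5 CPM in sum in C/C and 19.6 to 34.7 in T/T) and the classical monocyte genes, 2 each were tested in WAT and none was called, and none of 7 cytokine and effector genes with a row reached the minimum level.

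**Figure D3:**
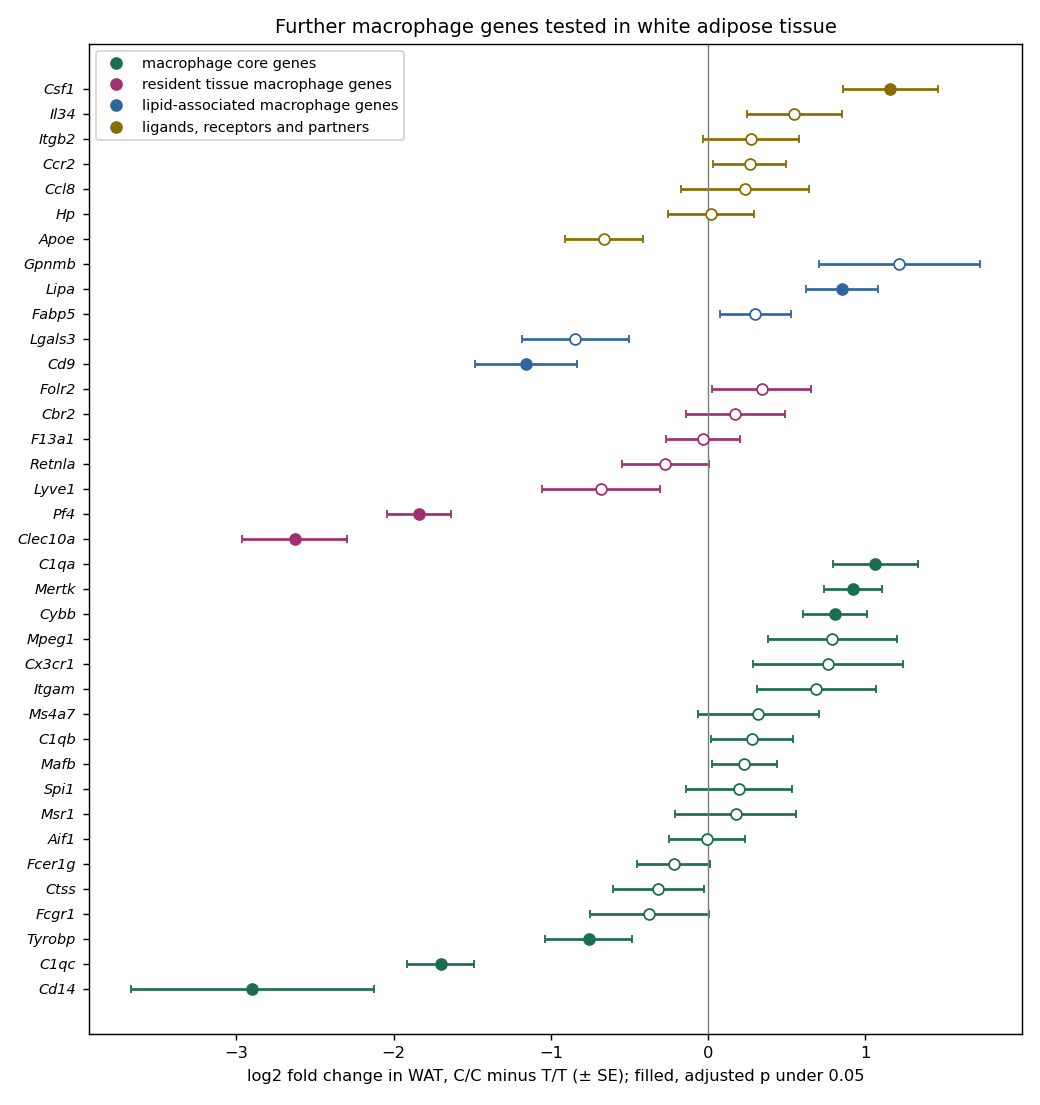
Log2 fold change in WAT (C/C minus T/T) ± SE from limma for further macrophage genes, coloured by list, with filled points for an adjusted p under 0.05. Each of the core and lipid-associated lists holds called genes on both sides of 0, among them *C1qc* (-1.70) and *C1qa* (1.06). *Cd14*, the lowest point, reached the minimum level only through T/T mice.

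Genes of other cells also differed between the WAT groups, where 32.1% of all genes tested were called (15.1% higher and 17% lower in C/C). Of 6 adipocyte genes, 5 were lower in C/C, and their summed level was 3700 to 9538 CPM in C/C and 11523 to 18356 in T/T. Of 5 erythroid genes 4 were lower in C/C, with sums of 634 to 993 and 2172 to 3003 CPM. Of 6 pan-leukocyte genes, *Cd52* was higher and *Cd53* lower (the latter also reached the minimum mean only through T/T mice), and the sums of 122.0 to 233.9 in C/C and 121.7 to 157.0 CPM in T/T overlapped. Of 5 endothelial genes, *Tek* was higher and *Pecam1* and *Kdr* lower. None of the mesothelial, dendritic cell, neutrophil and lymphocyte genes tested was called. Ovary genes summed to 4759 CPM in C/C mouse 593, to 23.7 to 28.5 in the other C/C mice and to 10.5 to 23.5 in T/T mice. These sums did not overlap between the genotypes even without mouse 593, and 1 of 5 genes tested (*Gdf9*) was called higher. Hepatocyte genes summed to 46.9 to 129.2 CPM in C/C and 171.5 to 700.8 in T/T, with 2 of 3 called lower. The part of these differences in the values of the macrophage markers was not tested. *Adgre1* and *Cd68* remained called without mouse 593 (adjusted p = 0.0140 and 0.0249), and the summed CPM of the 9 markers overlapped between C/C (306.5 to 778.5) and T/T (364.7 to 639.3).

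**Figure D4:**
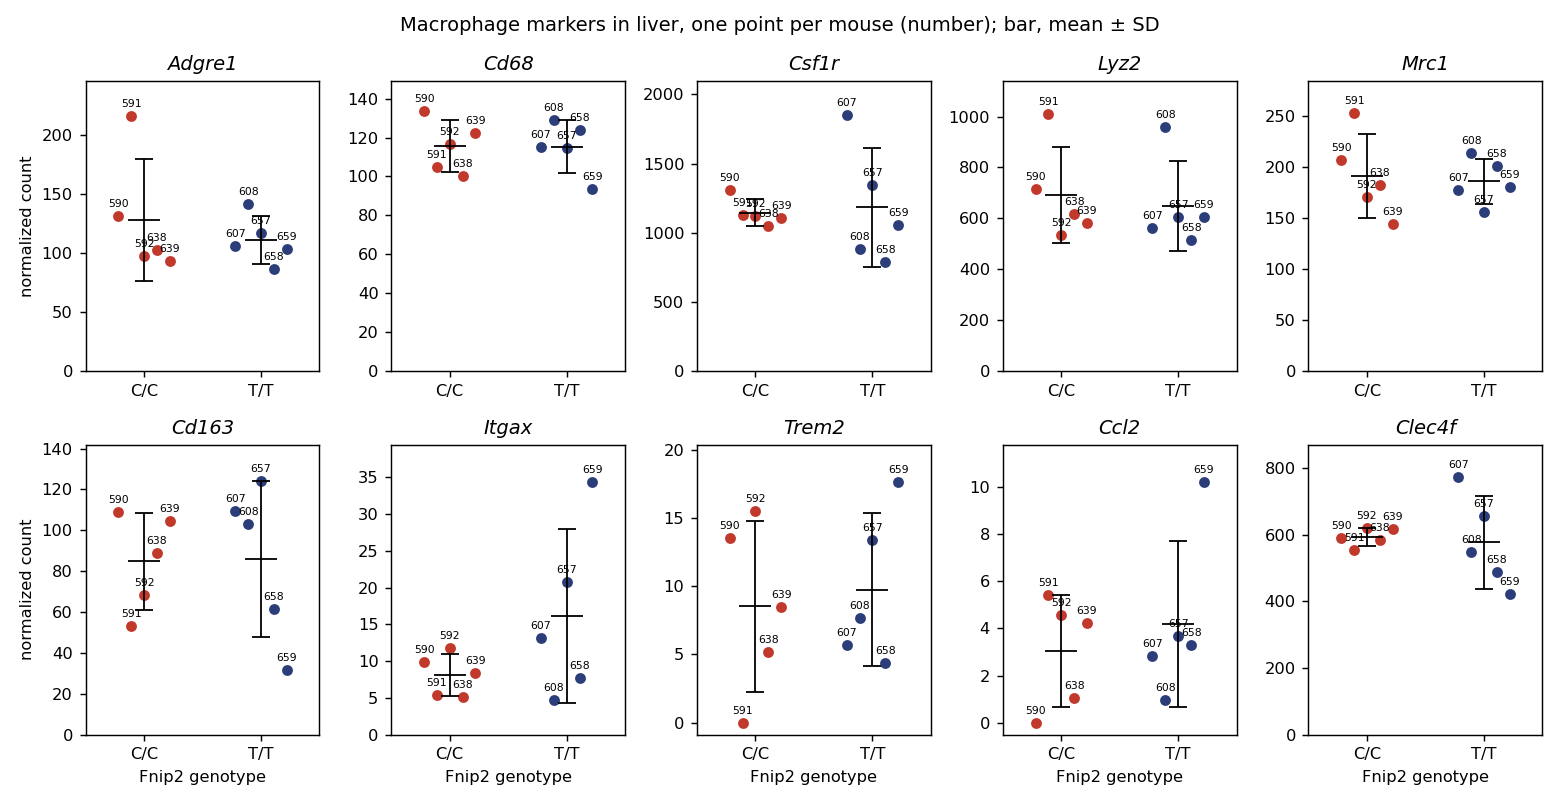
Normalized counts of the 10 macrophage markers in liver, plotted on a linear axis for each mouse by *Fnip2* genotype, with the mean ± SD of 5 C/C and 5 T/T mice. The genotypes overlap for every marker.

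The liver columns are ordered in a way that does not follow the labelled genotypes. The assignment of genotypes to livers is therefore in doubt, and each liver comparison below, and the comparison between tissues, holds only if the labels are right. In liver, 8 of the 10 markers were tested and 0 were called, as were 0 of all 11710 genes (0%). At an unadjusted p under 0.05 limma gave 0 of the 8 markers and 231 genes, and edgeR and DESeq2 on the recovered reads called 0 genes with 269 and 225 unadjusted. Each of these counts is below a share of 0.05 of the genes tested, the share expected with no difference, and the cause was not tested. The genotypes overlapped for all 10 markers, and were separate for 0.248% of all genes. *Clec4f*, a lectin found on mouse Kupffer cells, had 590.8, 553.0, 619.9, 584.6 and 616.7 normalized counts in C/C mice 590, 591, 592, 638 and 639. In T/T mice 607, 608, 657, 658 and 659 it had 772.6, 547.7, 656.0, 486.4 and 420.4. The C/C livers lay within the T/T range, and the log2 fold change was 0.07 (SE 0.14, limma adjusted p = 1.00).

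*Adgre1* had 131.7, 216.3, 97.5, 102.4 and 92.9 normalized counts in the C/C livers in the same order and 105.7, 141.5, 117.0, 86.7 and 103.0 in the T/T livers. *Cd68* had 133.5, 105.0, 116.7, 100.4 and 122.5 in C/C and 115.1, 129.0, 114.6, 124.1 and 93.7 in T/T. Their log2 fold changes were 0.15 (SE 0.21) and 0.00 (SE 0.14). Those of *Csf1r*, *Mrc1*, *Lyz2* and *Cd163* lay between 0.02 and 0.09. *Itgax* had the widest difference, -0.68 (SE 0.43, exact permutation p = 0.238), with 5.17 to 11.9 in C/C and 4.78 to 34.3 in T/T. The highest value was that of T/T mouse 659, without which the difference was -0.34 (exact permutation p = 0.476) and the gene was below the level required for limma. *Trem2* was below the level required for testing, with 13.5, 0, 15.5, 5.17 and 8.45 in C/C and 5.66, 7.65, 13.4, 4.39 and 17.6 in T/T (exact permutation p = 0.659). *Ccl2* had at most 11 reads in any liver. The sign of the smaller liver values depended on single mice and settings.

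The other macrophage lists in liver likewise held no called gene. The 5 Kupffer cell genes, *Vsig4*, *Timd4*, *Cd5l*, *Marco* and *Fcna*, had log2 fold changes from -0.10 to 0.32, and their summed level was 318.5 to 353.4 CPM in C/C and 261.4 to 387.6 in T/T. Over the 15 core genes tested the median was -0.01.

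Levels in the tissues can be set side by side as CPM, although the tables were normalized separately and the RNA input was 500 ng for WAT and 250 ng for liver, so they were not tested. *Cd68* was lower in every WAT library (3.48 to 9.86 CPM) than in any liver (14.3 to 20.4 CPM), and *Cd163* was higher in every WAT library (21.8 to 52.8 CPM) than in any liver (4.93 to 18.3 CPM). The tissues overlapped for the others, with 5.26 to 26.5 CPM of *Adgre1* in WAT and 12.7 to 33.0 in liver, and 141.3 to 427.7 CPM of *Csf1r* in WAT and 115.5 to 260.9 in liver. *Trem2* reached 32.6 CPM in WAT and at most 2.75 in liver.

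The tissues were set against each other in 1 limma fit of all 19 libraries. Of 7 markers tested in both tissues, 2 had a genotype effect in WAT that differed from that in liver, against 29.2% of 10404 genes, which is about the same share. The WAT effect minus the liver effect was -1.13 for *Adgre1* (SE 0.33, limma adjusted p = 0.0138) and -0.86 for *Cd68* (SE 0.23, adjusted p = 0.00922). For *Csf1r* (0.50), *Mrc1* (0.44), *Lyz2* (-0.35), *Cd163* (-0.27) and *Itgax* (0.68) the difference between tissues did not pass the threshold. After quantile normalization *Cd68* lost its call (-0.51, adjusted p = 0.126).

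After the genotype means were taken out, the markers did not vary as 1 block between mice. Over 28 pairs of markers the Pearson correlation of log2 values ranged from -0.75 to 0.70 in WAT (9 libraries) and from -0.50 to 0.92 in liver (10 libraries), where *Adgre1* and *Lyz2* gave the highest value. All points of a tissue share their libraries and size factors. The genes most like each marker in WAT were *Upf2* for *Adgre1* (r = 0.958), *Smim20* for *Cd68*, *Stoml1* for *Csf1r*, *Atp11a* for *Lyz2*, *Rap2a* for *Mrc1*, *Gm49492* for *Cd163*, *Slc35e2* for *Itgax* and *Nif3l1* for *Trem2* (r = 0.969). In liver they were *Fchsd2*, *Rnf144b*, *Gm34934*, *Cnot1*, *Il15ra*, *Sh3bgrl2* and *Csrp1* for *Adgre1*, *Cd68*, *Csf1r*, *Lyz2*, *Mrc1*, *Cd163* and *Itgax*, and *Gm13803* for *Clec4f* (r = 0.971). Each was picked as the highest r among the 12798 genes tested in WAT or the 11710 in liver. With so few libraries such a maximum is high even among unrelated genes, so no link is read from it.

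Promoters of 7 markers, from 250 bases before to 50 after the start site, were read from RefSeq (GRCm38.p6). Those of *Adgre1*, *Csf1r* and *Ccl2* were not available and were not searched. They were searched on both strands for GAGGAA, the core bound by the macrophage factor PU.1 (its reverse complement counts as a match), and for the E-box CACGTG. The first occurred in 3 of the 7 and in 28.3% of all promoters, and the E-box in 0 of the 7 and in 7.15% of all promoters. The windows below, with the match in capitals, are from *Cd68* (the first of 2 matches), *Trem2* and *Mrc1* (the first of 3 matches). *Cd68* fell in WAT of C/C mice and *Trem2* rose, so that promoters of markers with opposite signs held the same letters. The windows lie at chr11:69666378-69666407 (minus strand), chr17:48346349-48346378 (plus strand) and chr2:14229222-14229251 (plus strand).
Cd68: tttcttaccaatGAGGAAagggcttcccat
Trem2: agcctcctttccTTCCTCcctccctcacgc
Mrc1: ctcctacacatgTTCCTCtctccccttcct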

How the data were processed

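RNA from WAT and liver was sequenced as 3′ reads. Per the labels, the submitters' processing notes name FastQC 0.11.9, HISAT2, SAMtools 1.12, HTSeq, DESeq2 and the build GRCm39. The authors deposited 1 table per tissue, whose signal values are read counts divided by a size factor, with the 4 runs of a mouse combined. Whole reads were recovered for 100% of values. Reads carry no molecular identifiers. A WAT column without a label (1) was not used. The liver columns are ordered by even and odd RNA label numbers in a way that does not follow the labelled genotypes, which leaves the genotypes of the livers in doubt. The labels were used, and a term for even label numbers was tried in liver. In WAT even and odd label numbers coincide with the genotypes, so such a term could not be fitted there.

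Log2(value + 1) was fitted with limma 3.58.1 (trend and robust options) in R 4.3.3 for genes with a mean of at least 10. The study's methods name no test for these data. Exact permutation (126 groupings in WAT, 252 in liver) was used for 19 comparisons of single markers and 12 of ratios, without adjustment. The ratio of *Adgre1* to *Csf1r* was added after the values were seen. The rule for further genes named the 2 with the lowest p of each list, genes showing another cell type and the gene most correlated with each marker. Others, among them *C1qa*, *C1qb*, *Cybb*, *Tyrobp*, *Il34* and *Gpnmb*, were named after their values were seen. Markers and lists were chosen with earlier results of these data known. Fits were tested on simulated data. Alternatives used edgeR 4.0.16 and DESeq2 1.42.0 on recovered reads, other pseudocounts, filters, scalings and weights, a mouse number term, and each mouse left out.

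Mice are the replicates, and the libraries of the 6 mice with both tissues are paired by the labels. Deviations from the group means correlated between the tissues of a mouse with r from -0.203 to 0.156.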

Additional observations from a re-analysis of the deposited data

Results flagged for a closer look

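The genotype effect differed between the tissues, by a test of the difference itself, for 2 markers. It was -1.13 on the log2 scale for *Adgre1* and -0.86 for *Cd68* (WAT effect minus liver effect, limma adjusted p = 0.0138 and 0.00922). This is 2 of 7 markers, a share near the 29.2% of all genes, it holds only if the liver labels are right, and *Cd68* lost its call after quantile normalization (-0.51, adjusted p = 0.126). Single samples lay far from the rest of their group for 2 markers. C/C mouse 638 had 5.86 normalized counts of *Ccl2* in WAT, from 5 reads, where the other 3 C/C mice had 0. With those 3 tied at 0, any read in mouse 638 would have been flagged. T/T mouse 608 had 959 normalized counts of *Lyz2* in liver, where the other 4 T/T livers had 516 to 605. Of 38 groups looked at in this way, chance flags about 5%, a rate that does not hold for values tied at 0.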

How the results depend on the processing

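*Adgre1*, *Cd68* and *Trem2* kept their direction and call in WAT under every alternative that tested them, and no marker was called in liver under any. Of 516 repeats of single values, 465 kept direction and side of the threshold, 48 turned sign, 2 passed it and 1 lost it. With a minimum mean of 50, 1 marker was called in WAT and 1 in the interaction, since fewer markers were tested, and after quantile normalization 1 was called in the interaction, where the cause was not tested. With the mouse as a replicate block the interaction called 2753 genes and 2 markers, against 3033 genes and 2 markers without it. The block was used for the interaction only. Scaling to the same total moved the median interaction of all genes from -0.04 to -0.10. With all mice the exact test, unadjusted, gave 4 of the 9 markers in WAT. It was not run over all genes, of which 5613 of 12798 had an unadjusted limma p under 0.05 there. Leaving out 1 mouse gave 2 (mouse 607, 608 or 609) to 4 markers by the exact test in WAT, and 1 to 3 by ratio, where fewer groupings also raise the smallest p.

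Most sign changes were of values near 0. Among the WAT ratios the larger ones came with *Adgre1* alone as the denominator. Swapping *Csf1r* for *Adgre1* subtracts the log2 ratio of *Adgre1* to *Csf1r* from each value, and that ratio differed by -1.52 in WAT. The cause of the remaining sign changes was not tested. In WAT *Itgax* was -0.064 with scaling to the same total, -0.20 with array weights and -0.019 with a mouse number term. In liver, *Cd68* and *Csf1r* were -0.0036 and -0.021 after quantile normalization, and *Cd68* was -0.0053 with scaling to the same total. With edgeR *Cd68*, *Csf1r* and *Cd163* were -0.0018, -0.054 and -0.021, and with DESeq2 *Csf1r* and *Cd163* were -0.050 and -0.018. Array weights gave *Mrc1* -0.029, and the mouse number term gave *Cd68*, *Csf1r* and *Mrc1* -0.019, -0.027 and -0.024. Relative to *Adgre1* alone, WAT ratios were 0.11 for *Cd68*, 0.74 for *Lyz2*, 0.82 for *Cd163* and 1.01 for *Itgax*, and liver ratios were -0.062 for *Lyz2*, -0.063 for *Cd163* and -0.079 for *Clec4f*. Relative to *Csf1r* alone *Mrc1* was -0.053 in WAT and 0.0079 in liver.

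With 1 mouse left out, the WAT log2 fold change ranged from -0.42 to 0.00085 for *Cd163* and from -0.24 to 0.26 for *Itgax*. The liver ranges were -0.056 to 0.25 for *Adgre1*, -0.068 to 0.053 for *Cd68*, -0.11 to 0.20 for *Csf1r*, -0.056 to 0.24 for *Lyz2*, -0.082 to 0.12 for *Mrc1*, -0.23 to 0.26 for *Cd163* and -0.033 to 0.19 for *Clec4f*. In the interaction *Cd163* ranged from -0.48 to 0.049. The term for even RNA label numbers in liver, the leaving out of mice in the exact tests, and the *Gpnmb* value without mouse 593 were chosen after seeing the data.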
